A study of Mus musculus with 6 samples.

Results

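The enzymes that activate fatty acids and break them down by beta-oxidation were compared between hearts with and without expression of the human sex-determining gene SRY (hSRY). Members were taken by gene symbol: the acyl-CoA synthetases (Acsl, Acss), carnitine palmitoyltransferases (Cpt1, Cpt2), acyl-CoA dehydrogenases (Acad), hydratases, isomerases, reductases and thiolases (Ech, Hadh, Decr, Dci, Acaa), electron transfer flavoproteins (Etf), peroxisomal oxidases (Acox), the dehydrogenases Hsd17b4 and Hsd17b10, and the acyl-CoA thioesterases (Acot). This rule found 95 probes for 54 genes among the 25697 probes for 18137 genes in the heart table. The test took probes with signal above background (detection p under 0.05) on 3 or more of 6 arrays, and 70 probes for 42 member genes met this. Hadha, Acad11 and Acot13 were not analysed here.

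The samples were 6 hearts of male FVB pups (FVB/N in the methods) at postnatal day 6, with 3 hSRY-ON and 3 hSRY-OFF hearts. Each was hybridised to its own single-colour array on Illumina mouse BeadChips. The hSRY-ON pups carried Signalox-hSRY, a single-copy transgene in which the CAG promoter drives FLAG-tagged hSRY and EGFP after Cre removes a stop cassette holding DsRed2. The transgene came from the father and was recombined at the single-cell stage by Cre protein carried over in eggs of Ddx4-Cre females. The hSRY-ON pups taken for arrays had not inherited Ddx4-Cre themselves. The hSRY-OFF state is the unrecombined transgene in the study's methods, whereas its results also describe control littermates with Ddx4-Cre alone or with neither transgene, so the genotype of the 3 control hearts is not settled. CAG is active in nearly all tissues, so hSRY was not restricted to cardiac muscle, and all hSRY-ON pups share 1 insertion. The labels give neither the litter, the body weight nor the feeding state of the pups, and the level of hSRY itself was not measured here. The study does report that hSRY-ON pups suckled little, lacked milk in the stomach and grew more slowly than their littermates. Nutrition and size therefore differed with genotype, and their part in the values below was not tested.

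Fatty acids are first joined to coenzyme A by synthetases on the outer mitochondrial membrane and the endoplasmic reticulum. Long chains then cross into the mitochondrion as carnitine esters, and each turn of beta-oxidation passes through a dehydrogenase, a hydratase, a second dehydrogenase and a thiolase, with electrons leaving through the electron transfer flavoprotein. Very long and branched chains are first shortened in peroxisomes, where an oxidase replaces the first dehydrogenase. The heart is one of the most active sites of mitochondrial beta-oxidation, and its use of fatty acids rises after birth when milk becomes the main fuel.

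The mitochondrial steps of beta-oxidation were lower in hSRY-ON hearts, whereas none of the 5 tested peroxisomal members passed the test in either direction. Outside the member rule, Peci, whose enzyme is found in peroxisomes, and Abcd2 of the peroxisomal membrane, read from a dim probe, were called lower. The mitochondrial steps here are the acyl-CoA dehydrogenases, the hydratase and thiolase steps, the auxiliary enzymes and the electron transfer genes. Cpt1b, Cpt2, Acss1, Acot2 and the branched-chain members Acad8, Acadsb and Hsd17b10 were counted apart. Of 15 tested mitochondrial genes, 13 fell and none rose, with a median log2 fold change (hSRY-ON minus hSRY-OFF) of -1.07. Of 5 tested peroxisomal genes 0 were called by limma, with a median of -0.18, and 1 had an unadjusted p under 0.05. The synthetases split, with 3 lower and 3 higher among 6 tested. Among all 42 tested members 22 were lower and 3 higher, and the median was -0.55.

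A gene was called at a Benjamini-Hochberg adjusted p under 0.05 in limma's moderated test, adjusted over all 12970 tested probes, and each gene was read from its brightest tested probe. Over all 9660 tested genes 13.9% were called lower, 14.9% higher and 28.8% in either direction, and the median was 0.00, against 52.4% of the members and 86.7% of the mitochondrial genes called lower. All hSRY-ON hearts lay below all hSRY-OFF hearts for 25 of 42 members and 13 of 15 mitochondrial genes, beside 22.0% of all tested genes. The reverse order held for 7 members, beside 24.9% of all tested genes. Calls with a decrease of 1 or more on the log2 scale made up 4.60% of all tested genes, 14 of the 42 members and 10 of the 15 mitochondrial genes. Members were mostly bright, with 23 of 42 among the 2415 brightest of all tested genes, where 15.7% were called lower. These 2415 held 12 of the 15 mitochondrial genes but 2 of the 5 peroxisomal genes, so the 2 sets differed in brightness. Without normalization between arrays, the higher share of all called probes went from 50.1% to 38.5%, and 12 of 15 mitochondrial genes were still called lower.

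**Figure D1:**
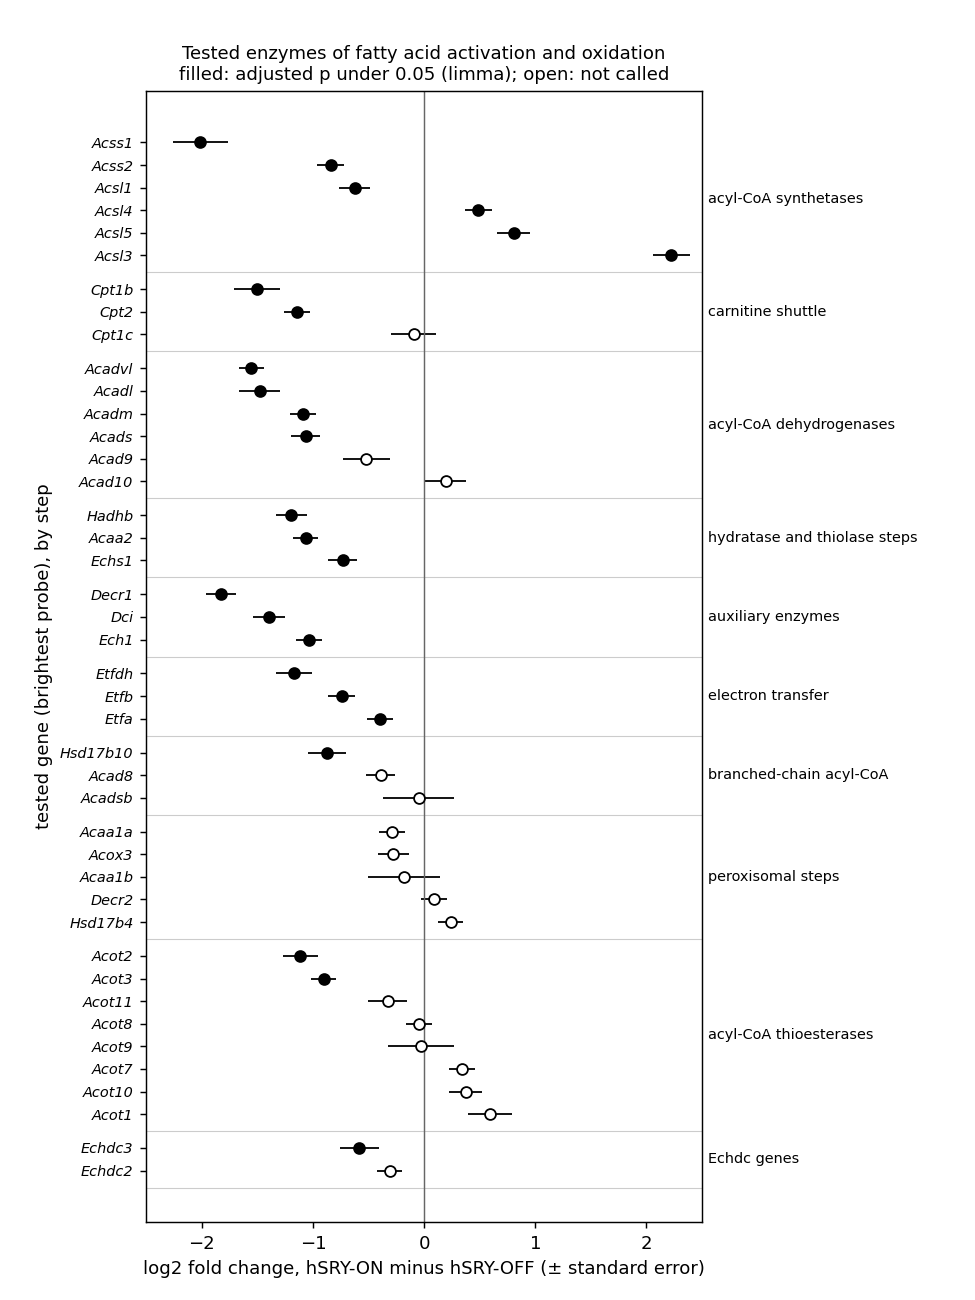
Log2 fold change (horizontal axis, hSRY-ON minus hSRY-OFF, 3 hearts each) of the brightest tested probe of each of the 42 tested member genes, grouped by role, with bars for the standard error and filled points for genes called at an adjusted p under 0.05. Genes of the mitochondrial steps lie between -1.83 and 0.19, the peroxisomal genes between -0.29 and 0.24, and the synthetases on both sides of 0.

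The arrays were alike in the share of probes above background but differed in deposited signal. Between 47.2% and 51.3% of probes were above background on each array. Array medians in deposited intensity were 187.9, 200.7 and 156.1 for hSRY-OFF hearts 1, 2 and 3. They were 169.4, 173.2 and 166.6 for hSRY-ON hearts 1, 2 and 3. Normalized values correlated at 0.983 to 0.992 within groups and 0.94 to 0.96 between them. The labels name no slide or scan, so a batch could not be examined. With 3 hearts a group, precision is limited by the number of arrays. In whole heart RNA, fewer cells of a type and less RNA per cell cannot be told apart.

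Promoters were examined for 2 short motifs, because the members of the mitochondrial steps moved together. The sequences are RefSeq's for GRCm38.p6, 46 of 54 members matched an entry, and the 250 bases before each transcription start were searched on both strands. AAGGTCA, the extended site of orphan nuclear receptors such as the estrogen-related receptors, was in 4.7% of 27025 promoters and in 3 of 46 members. The 3 were Acadm, Acot4 and Acsl6, and of 19 members called lower it was in Acadm alone. AACAAT, the core bound by SRY and SOX proteins, was in 10.9% of all promoters and in 2 members, Acsl1 and Acot9, with 0 of 13 mitochondrial and 0 of 6 peroxisomal members. A match describes letters in this window and is no evidence of binding. The 3 windows shown belong to the lowered mitochondrial gene with a match, the main cardiac synthetase with a match, and the member that rose most, which held neither motif. Capitals mark the matches, which read TGACCTT in Acadm and ATTGTT in Acsl1 because both lie on the opposite strand. The windows are chr3:153944644-153944893 on the minus strand for Acadm, chr8:46490716-46490965 on the plus strand for 1 of the listed starts of Acsl1, and chr1:78657575-78657824 on the plus strand for Acsl3.
Acadm: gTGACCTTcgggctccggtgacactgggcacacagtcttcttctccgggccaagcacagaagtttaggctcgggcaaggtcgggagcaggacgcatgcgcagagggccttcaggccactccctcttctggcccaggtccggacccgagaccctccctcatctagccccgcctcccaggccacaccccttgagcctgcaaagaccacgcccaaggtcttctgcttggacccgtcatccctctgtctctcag
Acsl1: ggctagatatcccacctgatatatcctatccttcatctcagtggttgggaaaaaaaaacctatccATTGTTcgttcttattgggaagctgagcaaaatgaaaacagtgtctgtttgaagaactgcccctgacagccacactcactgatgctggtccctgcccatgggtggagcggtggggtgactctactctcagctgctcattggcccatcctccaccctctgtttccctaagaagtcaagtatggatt
Acsl3: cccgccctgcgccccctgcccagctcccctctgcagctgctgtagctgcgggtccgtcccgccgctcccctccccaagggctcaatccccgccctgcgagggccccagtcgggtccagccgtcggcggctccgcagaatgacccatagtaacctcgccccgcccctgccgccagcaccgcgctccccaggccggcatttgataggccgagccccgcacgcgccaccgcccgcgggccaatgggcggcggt

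Activation did not move one way. All values below are normalized log2 intensities of 1 probe in hearts 1, 2 and 3 of each group, and they compare hearts, not genes. Acsl1, the main long-chain synthetase of cardiac muscle, stood at 11.99, 11.85 and 11.80 in the hSRY-OFF hearts and 11.06, 11.28 and 11.45 in the hSRY-ON hearts. The groups did not overlap, and Acsl1 fell by 1.54-fold, a log2 fold change of -0.62 (SE 0.14, adjusted p = 0.0147). This call was lost without normalization between arrays and without hSRY-OFF heart 1 or hSRY-ON heart 1. Acss1, the mitochondrial acetyl-CoA synthetase, was at 12.08, 12.13 and 11.85 in the hSRY-OFF hearts and 9.58, 10.57 and 9.87 in the hSRY-ON hearts. It had the largest decrease of the 42 members, with a log2 fold change of -2.01 (SE 0.25, adjusted p = 0.00132). Acss2, the cytosolic and nuclear acetyl-CoA synthetase, was at 10.08, 10.08 and 9.90 in the hSRY-OFF hearts and 9.09, 9.31 and 9.13 in the hSRY-ON hearts. All of its hSRY-ON hearts were again below the controls, with a log2 fold change of -0.84 (SE 0.12, adjusted p = 0.00264).

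The other 3 synthetases rose. Acsl3, found on lipid droplets and the endoplasmic reticulum, was at 8.91, 8.93 and 8.80 in the hSRY-OFF hearts and 11.22, 11.34 and 10.76 in the hSRY-ON hearts. Every hSRY-ON heart was far above every control, and Acsl3 was 4.67-fold higher, with a log2 fold change of 2.22 (SE 0.17, adjusted p = 0.000213). A dimmer Acsl3 probe was above background on no hSRY-OFF array, which gives only a bound of at least 1.73-fold higher in hSRY-ON hearts. Acsl5, of the mitochondrial outer membrane and the endoplasmic reticulum, was at 10.93, 10.91 and 10.96 in the hSRY-OFF hearts and 12.03, 11.63 and 11.56 in the hSRY-ON hearts. It rose by a log2 fold change of 0.81 (SE 0.15, adjusted p = 0.00683), a call lost without normalization between arrays. Acsl4, which prefers arachidonic acid, was at 6.65, 6.76 and 6.60 in the hSRY-OFF hearts and 7.03, 7.25 and 7.20 in the hSRY-ON hearts. Its groups did not overlap and the log2 fold change was 0.49 (SE 0.12, adjusted p = 0.0216), but the call was lost in 5 of 16 alternative analyses, among them those without hSRY-OFF heart 1, hSRY-ON heart 2 or hSRY-ON heart 3. A second Acsl4 probe changed by 0.05 and was not called. Acsl6 and Acss3 were above background on fewer than 3 arrays and were not tested.

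Of the carnitine shuttle, Cpt1b and Cpt2 fell. Cpt1b, the muscle isoform of the outer membrane step that controls entry of long chains, was at 12.08, 12.14 and 11.50 in the hSRY-OFF hearts and 10.19, 10.38 and 10.66 in the hSRY-ON hearts. The groups were well apart and Cpt1b was 2.83-fold lower, with a log2 fold change of -1.50 (SE 0.21, adjusted p = 0.00203) and of -1.50 at a second probe. Cpt2, which re-forms the acyl-CoA at the inner membrane, was at 12.20, 12.29 and 12.13 in the hSRY-OFF hearts and 10.99, 11.11 and 11.09 in the hSRY-ON hearts. Hearts within each group lay close together, and the log2 fold change was -1.14 (SE 0.11, adjusted p = 0.000629). Cpt1c, the brain isoform, changed by -0.09 (adjusted p = 0.766) and was not called. Cpt1a, the isoform of liver and of the fetal heart, was above background on no array.

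All 4 of the classical straight-chain dehydrogenases fell. Acadvl, which acts on very long chains at the inner membrane, was at 13.38, 13.48 and 13.29 in the hSRY-OFF hearts and 11.82, 11.78 and 11.89 in the hSRY-ON hearts. The spread within each group was small beside the gap, and Acadvl was 2.94-fold lower, with a log2 fold change of -1.55 (SE 0.11, adjusted p = 0.0002). Acadl, for long chains, was at 12.13, 12.16 and 11.74 in the hSRY-OFF hearts and 10.51, 10.27 and 10.82 in the hSRY-ON hearts. It changed by -1.48 (SE 0.18, adjusted p = 0.0014) without overlap, and a second probe by -1.76. Another Acadl probe was above background on no hSRY-ON array, which gives a bound of at least 1.70-fold lower.

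Acadm, for medium chains, whose promoter is printed above, was at 14.68, 14.65 and 14.83 in the hSRY-OFF hearts and 13.56, 13.68 and 13.64 in the hSRY-ON hearts. Its hSRY-ON hearts were all about 1 log2 unit below the controls, with a log2 fold change of -1.09 (SE 0.12, adjusted p = 0.000801). Acads, for short chains, was at 11.13, 11.27 and 11.34 in the hSRY-OFF hearts and 10.32, 10.01 and 10.21 in the hSRY-ON hearts. It too separated fully, with a log2 fold change of -1.07 (SE 0.13, adjusted p = 0.00135). Acad9, which also assembles respiratory complex I, was at 8.33, 8.42 and 7.95 in the hSRY-OFF hearts and 7.42, 7.60 and 8.12 in the hSRY-ON hearts. The groups overlapped through hSRY-ON heart 3, and its change of -0.52 (SE 0.21, adjusted p = 0.108) was not called, while a second Acad9 probe fell by 0.55 (adjusted p = 0.0376). Acad10 changed by 0.19 (adjusted p = 0.476) and was not called.

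The decreases of the 4 straight-chain dehydrogenases were compared pairwise by chain length, pairs chosen after their values were seen. Acadvl fell more than Acads by 0.49 on the log2 scale (SE 0.12), with an exact two-sided permutation p of 0.1, the smallest that 3 hearts against 3 allow, and 0.4 after Benjamini-Hochberg adjustment over 4 pairs. The other 3 differences were -0.39 (SE 0.26) for Acadl minus Acadm, -0.07 (SE 0.16) for Acadvl minus Acadl and -0.02 (SE 0.14) for Acadm minus Acads, with exact p of 0.3, 0.7 and 0.9, and 0.6, 0.9 and 0.9 after adjustment. With 3 hearts against 3 no pair could reach a p under 0.05, so the test leaves an order by chain length undecided.

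Of the later steps of the spiral, all 3 tested genes fell. Hadhb, the thiolase subunit of the mitochondrial trifunctional protein, was at 11.56, 11.79 and 11.37 in the hSRY-OFF hearts and 10.34, 10.46 and 10.34 in the hSRY-ON hearts. It was 2.29-fold lower without overlap, with a log2 fold change of -1.20 (SE 0.14, adjusted p = 0.0011). Echs1, the short-chain enoyl-CoA hydratase, was at 12.40, 12.58 and 12.44 in the hSRY-OFF hearts and 11.67, 11.62 and 11.93 in the hSRY-ON hearts. Its log2 fold change was -0.73 (SE 0.13, adjusted p = 0.0062), with all hSRY-ON hearts below the controls. Acaa2, the mitochondrial thiolase for medium and short chains, was at 13.77, 13.68 and 13.76 in the hSRY-OFF hearts and 12.58, 12.69 and 12.76 in the hSRY-ON hearts. Its log2 fold change was -1.07 (SE 0.11, adjusted p = 0.000801), and the other 3 Acaa2 probes had log2 fold changes of -1.12, -1.13 and -1.93. Hadh, the short-chain hydroxyacyl-CoA dehydrogenase, was above background on only 1 array and was not tested.

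The 3 auxiliary enzymes, which bring the double bonds of unsaturated fatty acids into place, all fell. Decr1, the mitochondrial dienoyl-CoA reductase, was at 10.40, 10.24 and 10.39 in the hSRY-OFF hearts and 8.58, 8.31 and 8.65 in the hSRY-ON hearts. The groups stood far apart, and at 3.56-fold lower Decr1 had the largest decrease of the mitochondrial steps, with a log2 fold change of -1.83 (SE 0.13, adjusted p = 0.00019). Dci, now named Eci1, the enoyl-CoA delta isomerase, was at 13.11, 13.09 and 12.78 in the hSRY-OFF hearts and 11.45, 11.59 and 11.75 in the hSRY-ON hearts. It fell by a log2 fold change of -1.40 (SE 0.14, adjusted p = 0.000739). Ech1, the dienoyl-CoA isomerase, was at 13.40, 13.41 and 13.17 in the hSRY-OFF hearts and 12.31, 12.31 and 12.25 in the hSRY-ON hearts. Its hSRY-ON hearts differed by less than 0.1 among themselves and lay below all controls, with a log2 fold change of -1.04 (SE 0.12, adjusted p = 0.00108).

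Electron transfer from the dehydrogenases was lower at each of its 3 genes. Etfdh, the oxidoreductase that passes electrons to ubiquinone, was at 12.59, 12.77 and 12.38 in the hSRY-OFF hearts and 11.27, 11.29 and 11.66 in the hSRY-ON hearts. Its log2 fold change was -1.17 (SE 0.16, adjusted p = 0.00211). Etfb, the beta subunit of the flavoprotein, was at 14.73, 14.74 and 14.70 in the hSRY-OFF hearts and 13.92, 13.88 and 14.15 in the hSRY-ON hearts. It separated fully, with a log2 fold change of -0.74 (SE 0.12, adjusted p = 0.00418) and of -0.71 at a second probe. Etfa, the alpha subunit, was at 14.37, 14.52 and 14.63 in the hSRY-OFF hearts and 14.14, 14.09 and 14.10 in the hSRY-ON hearts. Its brightest probe changed least, at -0.40 (SE 0.12, adjusted p = 0.0444), and that call was lost in 8 of 16 alternative analyses, among them those leaving out any 1 heart, while 2 dimmer Etfa probes had log2 fold changes of -1.42 and -1.29.

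**Figure D2:**
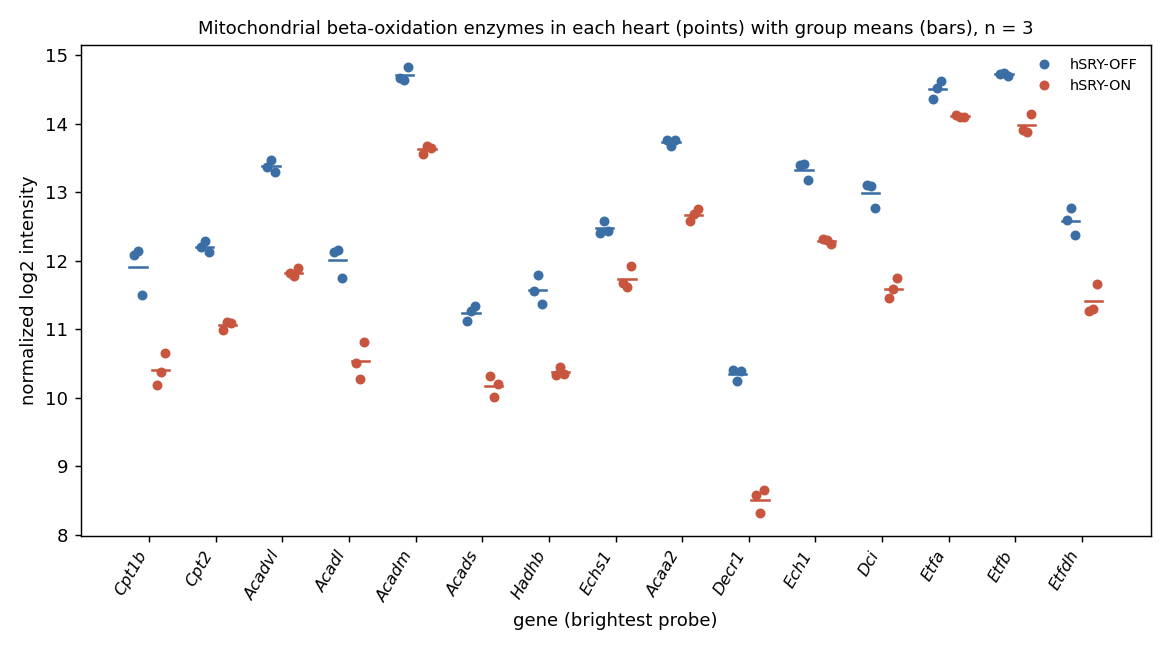
Normalized log2 intensity (vertical axis) in each heart (points) with group means (bars, n = 3) for Cpt1b, Cpt2 and the 13 mitochondrial genes called lower. In all 15 genes the 3 hSRY-ON hearts sit below the 3 hSRY-OFF hearts, with the smallest gap in Etfa.

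Of the 3 branched-chain members 1 fell. Hsd17b10, a mitochondrial dehydrogenase of isoleucine breakdown that is also a subunit of the mitochondrial RNase P, was at 11.32, 11.45 and 10.86 in the hSRY-OFF hearts and 10.32, 10.27 and 10.41 in the hSRY-ON hearts. It changed by -0.87 (SE 0.17, adjusted p = 0.00826) without overlap. Acad8, of valine breakdown, changed by -0.39 (adjusted p = 0.0612), and Acadsb, of isoleucine breakdown, by -0.05 (adjusted p = 0.925), and neither was called.

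None of the 5 tested peroxisomal steps was called. Hsd17b4, the multifunctional hydratase and dehydrogenase of peroxisomes, was at 12.17, 12.29 and 12.35 in the hSRY-OFF hearts and 12.50, 12.47 and 12.55 in the hSRY-ON hearts. Its hSRY-ON hearts all lay just above the controls, and its change of 0.24 (SE 0.11, adjusted p = 0.157) was not called, with a 95% interval from -0.02 to 0.50. Acaa1a, the peroxisomal thiolase, was at 12.02, 11.86 and 11.85 in the hSRY-OFF hearts and 11.64, 11.53 and 11.69 in the hSRY-ON hearts. Its order was the reverse, and its change of -0.29 (SE 0.12, adjusted p = 0.104), unadjusted p = 0.0387, was not called, with an interval from -0.56 to -0.02. Acox3, an oxidase for branched chains, was at 9.07, 9.01 and 9.29 in the hSRY-OFF hearts and 8.84, 9.01 and 8.68 in the hSRY-ON hearts. The groups overlapped, and the interval of its change of -0.28 (SE 0.14, adjusted p = 0.179) ran from -0.60 to 0.05. Decr2, the peroxisomal dienoyl-CoA reductase, was at 7.87, 7.79 and 7.98 in the hSRY-OFF hearts and 7.98, 8.01 and 7.91 in the hSRY-ON hearts. It changed by 0.09 (SE 0.11, adjusted p = 0.599), with an interval from -0.18 to 0.35, and the dim Acaa1b probe changed by -0.18, with an interval from -0.93 to 0.58.

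All 5 intervals lie above -1, the size of decrease reached by 10 of the 15 mitochondrial genes. The sign of the peroxisomal median depended on the choice of hearts: it was 0.0688 without hSRY-ON heart 2 and -0.04 without hSRY-OFF heart 3, and without the probe filter it was 0.0926. When the variance prior followed intensity, limma called Acaa1a lower and Hsd17b4 higher. Acox2 and Acoxl were not tested, since Acoxl was above background on no array and Acox2 on at most 2. The mean log2 intensity of the mitochondrial steps was 12.16, 12.21 and 12.06 in hSRY-OFF hearts and 11.10, 11.08 and 11.22 in hSRY-ON hearts. That of the peroxisomal steps was 9.30, 9.23 and 9.44 against 9.37, 9.11 and 9.23, with the groups overlapping.

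Mitochondrial and peroxisomal counterparts, and pairs of isoforms, were then set against each other within each heart, in 5 pairs with both genes tested. Decr1 fell by 1.92 more than Decr2 on the log2 scale (SE 0.13), and Acaa2 by 0.77 more than Acaa1a (SE 0.08). The difference Acsl1 minus Acsl4 was -1.11 (SE 0.10), and Acss1 fell by 1.17 more than Acss2 (SE 0.23). The difference Acot2 minus Acot1, a mitochondrial and a cytosolic thioesterase, was -1.71 (SE 0.31). In each of the 5 pairs the difference was lower in all 3 hSRY-ON hearts than in all 3 hSRY-OFF hearts. Each exact two-sided permutation p was 0.1, also after adjustment over the 5 pairs, and no smaller p is possible with 3 hearts against 3. Of single tested genes, 22.0% were lower in all hSRY-ON hearts than in all hSRY-OFF hearts, and 24.9% were higher. The share among other gene pairs was not computed, and the members were chosen with earlier results of these data known. The pairs Cpt1b with Cpt1a and Hadha with Hsd17b4 each had an untested gene.

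The thioesterases, which release free fatty acid from coenzyme A, were mixed: of 8 tested, 2 were lower and none higher in limma, with a median of -0.04, and 5 had an unadjusted p under 0.05. The share over all tested genes was 13.9% lower, and 1 of the 2, Acot3, passed the filter through the hSRY-OFF hearts alone. Acot2, in the mitochondrial matrix, was at 8.89, 9.11 and 9.14 in the hSRY-OFF hearts and 7.79, 7.79 and 8.22 in the hSRY-ON hearts. It fell without overlap, with a log2 fold change of -1.11 (SE 0.16, adjusted p = 0.0024), although 2 dimmer Acot2 probes changed by 0.19 and 0.14 and were not called. Acot1, its cytosolic and near-identical paralogue, was at 11.83, 11.98 and 11.88 in the hSRY-OFF hearts and 12.17, 12.94 and 12.36 in the hSRY-ON hearts. All of its hSRY-ON hearts were above the controls, but the change of 0.59 (SE 0.20, adjusted p = 0.0638) was not called, and without hSRY-ON heart 1 it was. Probes for such close paralogues can share signal, so the assignment of these values to Acot1 or Acot2 is uncertain. Acot3, another member of the same cluster, was at 5.86, 5.69 and 5.82 in the hSRY-OFF hearts and 4.84, 4.88 and 4.95 in the hSRY-ON hearts. No hSRY-ON array was above background for it, so only a bound of at least 1.38-fold lower can be given. Limma's adjusted p of 0.00147 belongs to the fitted values and not to this bound.

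Acot7, a cytosolic thioesterase best known from brain, was at 12.21, 12.08 and 12.07 in the hSRY-OFF hearts and 12.51, 12.37 and 12.51 in the hSRY-ON hearts. Its groups did not overlap, but the change of 0.34 (SE 0.12, adjusted p = 0.0648) was not called, while 2 of 3 dimmer Acot7 probes rose by 0.42 and 0.57 on the log2 scale. Acot10, a paralogue of Acot9, changed by 0.37 (adjusted p = 0.101), Acot11 by -0.33, the peroxisomal Acot8 by -0.05 and Acot9 by -0.02, and none was called. Acot4, Acot5, Acot6 and Acot12 were above background on no array. Of the enoyl-CoA hydratase domain genes, Echdc3 changed by -0.58 (SE 0.18, adjusted p = 0.0432), a call lost in 6 of 16 alternative analyses, and Echdc2 by -0.31 (adjusted p = 0.081), not called at its brightest probe but called lower at 2 others, by -0.55 and -0.41. Echdc1 was above background on no array.

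**Figure D3:**
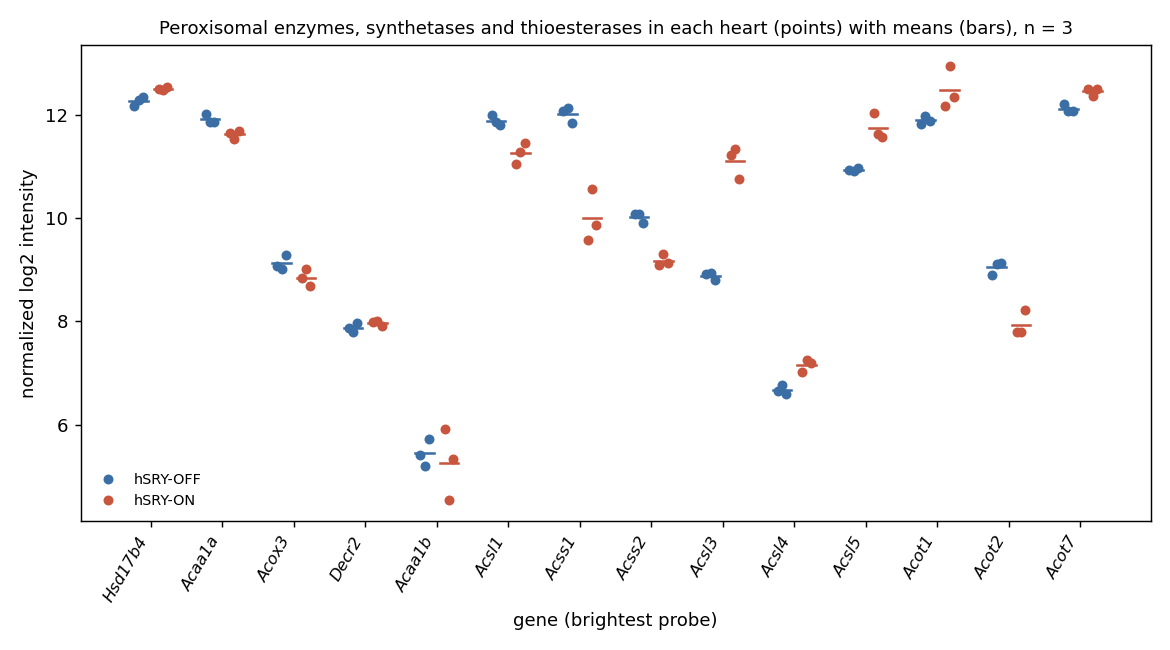
Normalized log2 intensity (vertical axis) in each heart (points) with group means (bars, n = 3) for synthetases, peroxisomal enzymes and thioesterases. Acsl3 and Acsl5 are higher and Acss1, Acss2 and Acot2 lower in every hSRY-ON heart, while the 5 peroxisomal genes Hsd17b4, Acaa1a, Acox3, Decr2 and Acaa1b changed by -0.29 to 0.24.

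Reading every probe instead of 1 per gene gave 35 of 70 tested member probes lower and 6 higher, beside 13.7% and 13.8% of all tested probes, or 27.5% in either direction. Of 19 genes with several tested probes, 5 had probes on both sides of the threshold and 0 had probes called in opposite directions.

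Genes of the pathway that the rule left out, namely the carnitine acyltransferases and carriers, malonyl-CoA enzymes and propionate and peroxisomal steps, were lower in 5 of 16 tested and higher in none, with a median of -0.30. That is 31.2% lower, beside 13.9% of all tested genes. Crat, the carnitine acetyltransferase that buffers acetyl-CoA, was at 12.46, 12.39 and 12.53 in the hSRY-OFF hearts and 10.89, 11.02 and 11.14 in the hSRY-ON hearts. It had the largest decrease of this list, -1.45 (SE 0.12, adjusted p = 0.000316). Mlycd, the malonyl-CoA decarboxylase that relieves inhibition of Cpt1, was at 9.57, 9.74 and 8.82 in the hSRY-OFF hearts and 7.75, 8.18 and 8.19 in the hSRY-ON hearts, a log2 fold change of -1.33 (SE 0.25, adjusted p = 0.00745). The hSRY-ON hearts were below all controls for both. Peci, now Eci2, is an enoyl-CoA isomerase found in peroxisomes. Its values were 9.57, 10.28 and 9.47 in the hSRY-OFF hearts and 8.92, 8.92 and 8.93 in the hSRY-ON hearts. The log2 fold change was -0.85 (SE 0.21, adjusted p = 0.0223). Abcd2, a transporter of the peroxisomal membrane, changed by -0.55 (SE 0.16, adjusted p = 0.0359) and was called lower. Its dim probe was above background on 2 hSRY-ON arrays. Slc25a20, the inner membrane carnitine carrier, changed by -0.22 (adjusted p = 0.161) and was not called. Without hSRY-ON heart 1 the number lower was 3.

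Peroxisome biogenesis genes gave 2 of 16 tested lower and none higher, that is 12.5%, near the 13.9% of all tested genes. Pxmp2, a peroxisomal membrane channel, was at 9.47, 9.47 and 9.39 in the hSRY-OFF hearts and 8.15, 7.56 and 8.19 in the hSRY-ON hearts, a log2 fold change of -1.47 (SE 0.18, adjusted p = 0.00136). Pex19, the receptor that brings in peroxisomal membrane proteins, was at 12.07, 12.06 and 11.65 in the hSRY-OFF hearts and 11.16, 11.06 and 11.24 in the hSRY-ON hearts, a log2 fold change of -0.77 (SE 0.15, adjusted p = 0.00838). Catalase changed by -0.72 (adjusted p = 0.0711) and was not called. Without hSRY-OFF heart 3 the number lower was 4.

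Of 9 tested markers of cardiac muscle, 8 were above background in every heart and Ryr2 in all but 1 hSRY-ON heart. By the test 4 were lower and 1 higher: Pln (-1.47), Tnni3 (-1.13), Ryr2 (-1.09) and Myh6 (-0.51) fell on the log2 scale, and Myh7, the fetal myosin heavy chain, rose by 2.94 (SE 0.18, adjusted p = 8.25e-05). Among all tested genes 13.9% were called lower and 14.9% higher. Actn2 (0.13) and Actc1 (-0.20) were not called. Neither were Myl2 and Myl3, whose deposited intensities lay near the brightest value of each array, so their values bear little on whether they changed. The summed cardiac marker level, in unlogged normalized intensity, was 161400 to 173100 among hSRY-OFF hearts and 158700 to 168100 among hSRY-ON hearts. Without Myl2 and Myl3, left out after the values were seen, the other 7 markers summed to 76150 to 86130 and 75240 to 82760. Nearness of these sums does not show equal amounts of muscle, since single markers rose and fell.

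Of the marker lists of other cell types, the summed hepatocyte, macrophage, skeletal muscle and fibroblast levels did not overlap between groups, while those of adipocytes, erythroid cells and endothelium did. Adipose tissue and liver also carry out beta-oxidation, and their part in the results above was not tested. Of adipocyte markers, 4 of 9 passed the filter, with 0 lower and 2 higher, and Elovl3, Plin, Retn and Lep were above background on no array. Over all tested genes 14.9% were called higher. Ucp1 and Cfd were above background in 1 hSRY-OFF and 3 hSRY-ON hearts, and Adipoq in 2 and 3, so the filter favoured higher calls. Fabp4, above background in 2 hSRY-OFF hearts and 0 hSRY-ON hearts, was not tested. Ucp1, the brown fat uncoupler, was at 4.64, 5.03 and 8.88 in the hSRY-OFF hearts and 10.81, 8.80 and 9.94 in the hSRY-ON hearts, with hSRY-OFF heart 3 above 1 of the hSRY-ON hearts, and Adipoq, the adipocyte hormone adiponectin, changed by 1.48 (SE 0.39, adjusted p = 0.0265). Cidea, a lipid droplet protein of brown fat, went the other way, from a mean of 10.92 (SD 0.10, n = 3) in hSRY-OFF to 9.86 (SD 0.83, n = 3) in hSRY-ON hearts, a change of -1.05 (SE 0.37, adjusted p = 0.0691) that was not called although the groups did not overlap. The summed adipocyte level spanned 1867 to 2639 across controls and 1101 to 3656 across hSRY-ON hearts. Of hepatocyte markers, 3 of 10 passed, with Ahsg (3.07) higher, Ttr higher by at least 3.87-fold since no hSRY-OFF array was above background, and 5 of 10, albumin among them, above background on no array, and the sum was 260.5 to 394.5 against 1253 to 3028. The hepatocyte sum, which rests on the 3 markers that passed, was higher in every hSRY-ON heart. Ttr passed the filter through the hSRY-ON hearts alone, so its part in this separation was favoured by the filter. Ahsg was above background in every heart.

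Macrophage markers were higher for 3 of 5 tested, with sums of 2025 to 3011 in hSRY-OFF against 4904 to 5312 in hSRY-ON hearts. Skeletal muscle markers had sums of 2830 to 4552 against 421.5 to 642.8, of which Acta1 (-3.25), also expressed in young heart muscle, fell and Actn3, above background on no hSRY-OFF array, rose by at least 3.10-fold, while the other 4 were above background on no array. Fibroblast markers gave 0 calls of 6 in limma, 2 at an unadjusted p under 0.05, with sums of 28740 to 31220 against 23390 to 28500. Erythroid markers were lower for 2 of 6, with sums of 51120 to 63600 against 51700 to 56620. Hbb-b1 (-1.29) and Hbb-b2 (-1.20) fell on the log2 scale without overlap, and the other 4 were not called. Among those 4, Hba-a1 lay at or near the brightest value of every array, so the overlap of the erythroid sums bears little on whether these cells changed. Endothelial markers were lower for 2 and higher for 1 of 5, with sums of 10700 to 11570 against 10620 to 11910. Beside these counts, 13.9% of all tested genes were called lower and 14.9% higher. The part of these cell types in the results was not tested.

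**Figure D4:**
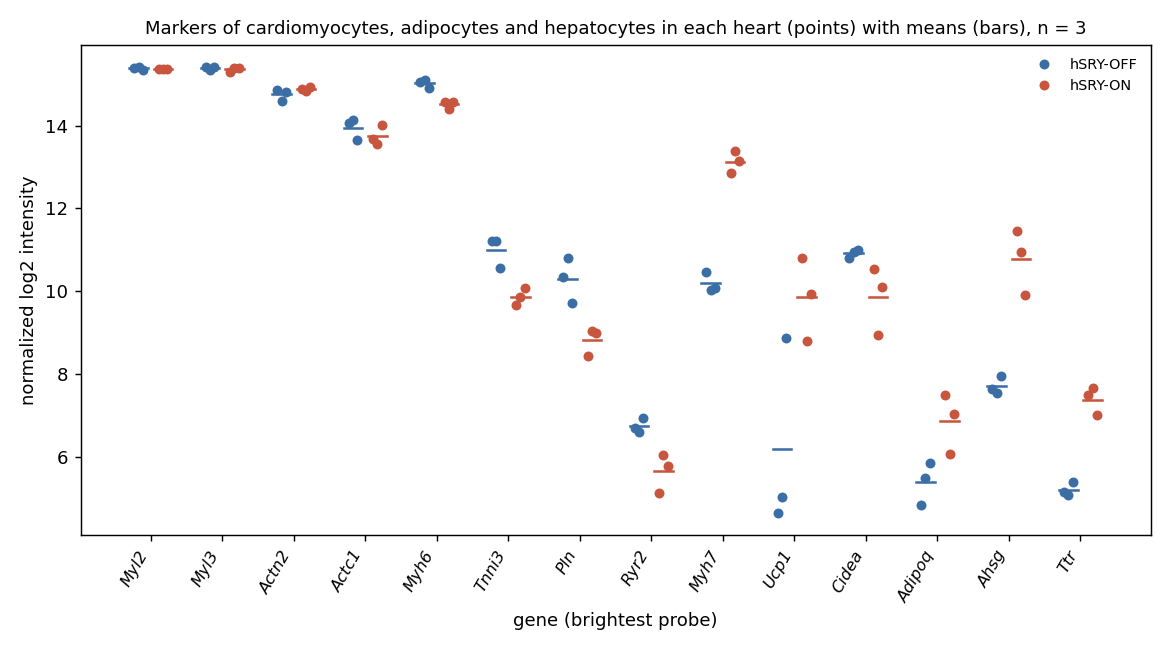
Normalized log2 intensity (vertical axis) of markers of cardiomyocytes, adipocytes and hepatocytes in each heart (points) with group means (bars, n = 3). Myl2 and Myl3 lie near the brightest values of the arrays, Myh7 and the hepatocyte genes Ahsg and Ttr are higher in every hSRY-ON heart, and Ucp1 is high in 1 of the 3 hSRY-OFF hearts.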

How the data were processed

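RNA from 6 mouse hearts was measured on Illumina MouseRef BeadChips. The authors deposited a table of mean bead intensity per probe, not normalized, with a detection p-value per probe and array, which gives how often background controls were as bright. The bead summary software is not given in the sources used here. The submitters' processing notes name limma, and the study's methods name the R package TCC, with no settings.

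Background was estimated from the deposited detection p-values and corrected by normexp with an offset of 16. Arrays were quantile normalized and log2 values fitted with lmFit and eBayes (limma 3.58.1, R 4.3.3), after Benjamini-Hochberg adjustment called at 0.05. Probes needed a detection p under 0.05 on at least 3 arrays, and each gene was represented by its brightest probe (highest average, all 6 arrays). Hadhsc was merged with Hadh. Summed marker levels are sums of unlogged normalized intensities. Pairs were tested by exact permutation. The scripts were tested on simulated data. Plots used matplotlib 3.10.9 under Python 3.11.15. Hearts were grouped by their labels, and the replicates are separate animals in the methods.

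Values in each heart are given for members that passed the test, at most 6 in each direction per role by size of change, and for both genes of each pair. For the accessory and peroxisome lists, up to 3 called genes in each direction, taken by size of change, are named. Acad9, Acox3, Hsd17b4, Acot7, Slc25a20 and catalase, and other members not called, were named after their values were seen, as were the pairs by chain length. The same holds for Abcd2, which was called lower. The members and lists were chosen with earlier results of these data known. Alternatives changed the background correction, normalization, filter, variance prior, block and choice of probe, or left out 1 heart. Other organs of these mice were not analysed here. One member is not reported here by name.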

Additional observations from a re-analysis of the deposited data

How the results depend on the processing

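Over the 16 alternatives that give a value per probe, no called change of a tested member turned its direction: of 663 values, 620 kept their side of the threshold, 23 lost a call and 20 gained one. Genes that lost a call were Etfa, Echdc3, Acsl4, Acsl1 and Acsl5. The number of members called higher, 3 in the main analysis, was 6 without background correction, 5 with normexp at an offset of 50 and with the intensity trend, and 1 without normalization between arrays, where the median of all probes shifted by -0.12, the mitochondrial median was -1.23 and 1 synthetase was higher. Peroxisomal steps had 1 call lower without background correction, 1 lower and 1 higher with the trend, and a median of 0.0926 without a probe filter. Thioesterases called higher were 3 without background correction, 2 at an offset of 50 and with the trend, and 1 when probes were averaged. Those called lower were 1 with detection on all 6 arrays, with detection at 0.01 and when probes were averaged. Without background correction the peroxisome list had 4 lower, Decr1 minus Decr2 was -1.57 and Acsl1 minus Acsl4 was -0.83. The cause of these shifts was not tested. Over all probes 3567 were called, but 1897 without normalization between arrays.

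Leaving out each heart in turn gave 2239 to 3714 called probes, the fewest without hSRY-OFF heart 1. Members called lower were 19 to 22 and higher 2 to 4, mitochondrial genes called lower 12 to 13 and their median -1.12 to -1.05. The peroxisomal median was -0.288 to 0.0688, with 0 calls throughout. Thioesterases called lower were 2 to 3 and higher 0 to 1, accessory genes lower 3 to 4 and peroxisome genes lower 2 to 4. The difference Acadvl minus Acadl was -0.19 to 0.04 and Acadm minus Acads -0.14 to 0.08.

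Deviations from the group mean correlated at -0.02, 0.04 and -0.07 between hearts with the same replicate number. Between hearts with unlike numbers they correlated at -0.06 to 0.09. With 3 hearts a group, these values cannot show whether the numbers mark litters or other pairs. With the replicate number as a block 2842 probes, 21 members lower and 3 higher, and 12 mitochondrial genes lower were called. Arrays measure dim probes poorly, and 12 members could not be tested.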
